A study of Mus musculus with 26 samples.

Results

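The mouse mitochondrial genome is a small circular DNA that carries its own genes, and the 37 genes on it are described here in embryonic gonads. They were chosen as every gene whose symbol starts with mt-, which gave 37 of the 57186 genes in the table that holds all Fgf9 deletions. Of the 37, 13 code for proteins, 2 for ribosomal RNAs (rRNAs) and 22 for transfer RNAs (tRNAs). The protein-coding genes supply subunits of the respiratory chain and of ATP synthase, the machinery that makes most of the cell's ATP, while all their other subunits come from nuclear genes. Mitochondrial RNA is made as long transcripts from both strands of the circle, which are cut apart largely at the tRNAs. Most of the resulting mRNAs, and the rRNAs, receive short poly(A) tails. In the gonad, mitochondria also house the first step of steroid hormone synthesis.

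The libraries came from XY gonads of mouse embryos at stage E13.5, dissected away from the mesonephros and frozen. There were 26 samples in 6 groups. Wild type (WT) had 3 samples, and 4 deletions at Fgf9, the gene of a secreted factor that promotes testis development, were named by their labels Fgf9 Δ306 (3 samples), Δ225 (6), Δ104 (4) and Δ93 (6). The sixth group was a knockout (KO) of Meis1, a homeobox transcription factor, with 4 samples. The labels give no deletion boundaries, zygosity, strain, litter or date. WT and Δ306 carry 1 wording of the labels, with the word rep, and the other 20 samples carry another, with the words biol rep. Every comparison of Δ225, Δ104, Δ93 or Meis1 KO with WT therefore cannot be told apart from a difference between these sets of samples. The same holds for comparisons of Δ225, Δ104 or Δ93 with Δ306. Comparisons of Δ306 with WT, and of Δ225, Δ104 and Δ93 with one another, lie within a set. The labels do not say that the samples of a set were handled together. Where the labels do not say that replicates came from separate animals, p-values measure only the spread between these samples.

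Poly(A) RNA was selected and made into strand-specific libraries, and the values are raw read counts per gene. The table of all deletions holds 11582619 to 53392393 counts per library, and the Meis1 table, with the WT and Meis1 KO libraries over 31053 genes, 35468633 to 51732897. Fgf9 itself had 9.53 ± 0.320 CPM (counts scaled to a common library size; mean ± SD) over the 3 WT libraries and 2.48 ± 0.406 over the 3 of Δ306. Its mean was 3.08 ± 0.863 for Δ93, 4.85 ± 1.76 for Δ104 and 7.02 ± 4.73 for Δ225, and Δ225 replicate 3, at 16.5, was above every WT library. Meis1 had 62.1 to 109 CPM in WT and 0.201 to 0.695 in the KO. The summed level of 4 germ-cell markers (Ddx4, Dazl, Pou5f1, Dppa3) was 13.6 CPM in WT replicate 1 against 467 and 701 in the other WT libraries, and that of 4 striated muscle markers (Myl2, Myh6, Tnnt2, Actc1) reached 578 in 1 Δ225 library, replicate 3, against a group median of 12.5.

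Whether a count can be assigned to a mitochondrial gene depends on its sequence, because pieces of the mitochondrial genome were copied into nuclear chromosomes. The longest such run in the annotation (GENCODE M21, build GRCm38) lies on the minus strand of chromosome 1 and holds copies of 7 mitochondrial mRNA genes. To show how close these copies are, the first bases of mt-Nd3, a complex I subunit, and of its copy Gm28438 are given 5′ to 3′, with the base that differs in capitals. The gene is at chrM:9459-9518 (plus strand) and the copy at chr1:24613060-24613119 (minus strand).
mt-Nd3: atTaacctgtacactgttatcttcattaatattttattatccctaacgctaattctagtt
Gm28438: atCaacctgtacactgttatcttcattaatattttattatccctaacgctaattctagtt
Over 345 aligned bases the pair differed at 1 base, T3C, counted from 1 at the 5′ end of mt-Nd3. The copy of mt-Co1, the catalytic subunit of cytochrome c oxidase, starts inside the gene, and its first bases (chr1:24616138-24616197, minus strand) are given beside those of the gene (chrM:6381-6440, plus strand), again with differing bases in capitals.
mt-Co1: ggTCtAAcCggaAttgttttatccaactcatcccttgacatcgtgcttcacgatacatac
Gm29216: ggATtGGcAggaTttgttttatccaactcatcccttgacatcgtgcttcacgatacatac
These were T1056A, C1057T, A1059G, A1060G, C1062A and A1066T, counted from 1 at the 5′ end of mt-Co1, and the remaining bases of the 492 aligned were identical. The copies of mt-Co2 (Gm28661), mt-Atp6 (Atp6-ps), mt-Co3 (Gm28437), mt-Nd4l (Gm10222) and the first 876 bases of mt-Nd4 (Gm28439) had no difference at all.

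Measured as the percent of each gene's 50-base words that also occur in a nuclear transcript, mt-Co2 shared 100% of its sequence, mt-Co3 99.9%, mt-Atp6 99.5%, mt-Nd4l 98.8% and mt-Nd3 98.0%. For mt-Nd4 the value was 62.2%, and for mt-Co1 it was 51.1%. The other 6 mRNA genes lay at 8.2% or lower, and mt-Nd1, mt-Nd6, mt-Cytb and mt-Atp8 at 0%. The WT and Δ306 libraries were counted 2 times by the authors, once in a smaller table that holds only these libraries and once in the table of all deletions, so the effect of the counting can be read from the same libraries. In the smaller table, mt-Nd1 had 100.8 to 103.0% of its count in the larger one, mt-Cytb 97.9 to 99.7% and mt-Nd2 97.8 to 100.6%. By contrast mt-Co2 had 0.0654 to 0.247%, mt-Co3 0.0584 to 0.319% and mt-Nd3 at most 0.345%. The genes with partly shared sequence lay between, mt-Co1 at 76.6 to 81.4% and mt-Nd4 at 38.9 to 46.1%. Thus the smaller table holds almost none of the counts of the genes that are copied whole, while the larger one holds them, and in the larger one the nuclear copies carry counts too. Gm28661 had 100.1% of the count of mt-Co2 in every library, Gm28438 100.6 to 103.4% of that of mt-Nd3, and Atp6-ps 143.7 to 194.2% of that of mt-Atp6. The copies of part of a gene had less, Gm28439 47.0 to 62.7% of mt-Nd4 and Gm29216 23.2 to 35.4% of mt-Co1. Copies on chromosome 2 had 1.1 to 6.0% (Gm13341, of mt-Co2) and 0.4 to 2.2% (Gm13340, of mt-Co1). A whole copy on chromosome 1 and its mitochondrial original therefore cannot be told apart in these counts. All annotated nuclear copies together took 0.490 to 5.94% of the counts of a library in the larger table.

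**Figure D1:**
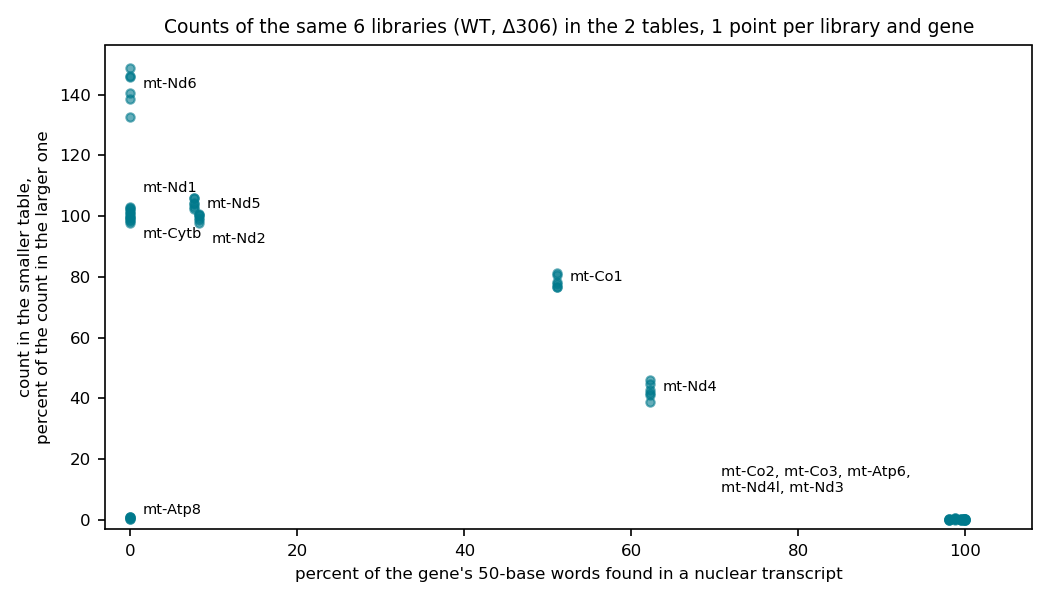
Each point is 1 of 13 mitochondrial mRNA genes in 1 of the 6 WT and Δ306 libraries; the horizontal axis is the percent of the gene's 50-base words found in a nuclear transcript, and the vertical axis is its count in the smaller table as a percent of its count in the table of all deletions. mt-Co1 (76.6 to 81.4%) and mt-Nd4 (38.9 to 46.1%) lie between the genes with little shared sequence, near 100%, and those copied whole, near 0%, while mt-Atp8 is near 0% with no shared word.

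For mt-Atp8 and mt-Nd6 the count in the smaller table did not follow the shared words. mt-Atp8 shares no 50-base word with an annotated nuclear transcript. Yet its count in the smaller table was 0.345 to 1.05% of that in the larger one. The gene (chrM:7766-7969) lies between mt-Co2 and mt-Atp6, whose copies lie at chr1:24614885-24615565 and chr1:24613974-24614651. Only annotated transcripts were searched, not the bases between these copies, so a copy of mt-Atp8 there was not looked for. mt-Atp8 overlaps mt-Atp6, the next subunit gene of ATP synthase on the same strand, by 43 bases. These are shown in capitals (chrM:7897-7999, plus strand).
mt-Atp8/mt-Atp6: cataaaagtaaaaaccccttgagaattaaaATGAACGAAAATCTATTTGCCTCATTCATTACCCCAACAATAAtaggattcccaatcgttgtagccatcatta
mt-Nd6, the single mRNA gene on the minus strand, had 133 to 149% of its larger-table count in the smaller table. Its end overlaps that of mt-Nd5, on the plus strand, by 14 bases, in capitals here as the plus strand reads (chrM:13532-13585).
mt-Nd5/mt-Nd6: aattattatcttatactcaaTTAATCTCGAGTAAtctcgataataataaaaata
Across the genome, genes with a fraction of over 0.5 of their length overlapped by a gene on the opposite strand were also higher in the smaller table, by a median of 0.37 to 0.53 on the log2 scale, against -0.03 to -0.01 for genes with no such overlap. The strand setting of the counting is not given in the sources used here, so sense and antisense reads cannot be told apart for mt-Nd6 and for the tRNA genes.

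The poly(A) tail, by which these RNAs were selected, completes the stop codon of some of them. The annotated mRNAs of mt-Co3 (chrM:9361-9390), mt-Nd4 (chrM:11515-11544) and mt-Cytb (chrM:15259-15288), all on the plus strand, end in a single T, the capital in their last 30 bases.
mt-Co3: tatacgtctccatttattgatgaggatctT
mt-Nd4: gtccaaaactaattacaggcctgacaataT
mt-Cytb: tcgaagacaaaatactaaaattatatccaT
As annotated, the other 10 mRNA genes end in a whole stop codon of TAA or TAG. For mt-Nd1 and mt-Nd2, the last 2 bases, AG, are shared with the next tRNA gene on the same strand, mt-Ti and mt-Tw. Whether their mRNAs keep these bases was not tested.

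The share of all counts that came from the 13 mRNA genes was lowest in WT. It was 1.22, 0.807 and 1.76% in WT replicates 1 to 3, a mean of 1.26 ± 0.476% (SD, n = 3). Δ306 had 2.15, 2.91 and 2.46%, a mean of 2.51 ± 0.384% (n = 3), and no Δ306 library overlapped WT. In bulk RNA of this kind, fewer cells of a type and less RNA per cell cannot be told apart. Δ104 had 2.90, 2.59, 3.18 and 2.61% in replicates 1 to 4, a mean of 2.82 ± 0.281% (n = 4). Among the 6 Δ93 libraries the share ran from 2.41 through a median of 2.72 to 2.87%, the narrowest spread among the groups of the table of all deletions (2.69 ± 0.176%). Every library of these deletions was above every WT library, and the ratio of group means to WT was 0.99 on the log2 scale for Δ306, 1.16 for Δ104 and 1.09 for Δ93.

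Δ225 was set apart by its replicates 1 and 2. Its replicates 1 to 6 had mRNA shares of 11.4, 5.33, 2.99, 2.47, 2.87 and 2.91%, a mean of 4.67 ± 3.47% (n = 6). Replicate 1 was also the library with the fewest counts, 11582619. Without it the mean was 3.31 ± 1.15% (n = 5), and without replicates 1 and 2 it was 2.81 ± 0.231% (n = 4), which lies among the other deletions. The log2 ratio to WT fell from 1.89 to 1.16 when both were left out, and the 4 remaining libraries were still above WT. Counted over mt-Nd1, mt-Nd2, mt-Nd5, mt-Nd6 and mt-Cytb only, the genes outside the run copied to chromosome 1, the log2 ratios were 0.99 for Δ306, 1.27 for Δ104, 1.13 for Δ93 and 2.24 for Δ225, a choice made after the data had been seen.

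**Figure D2:**
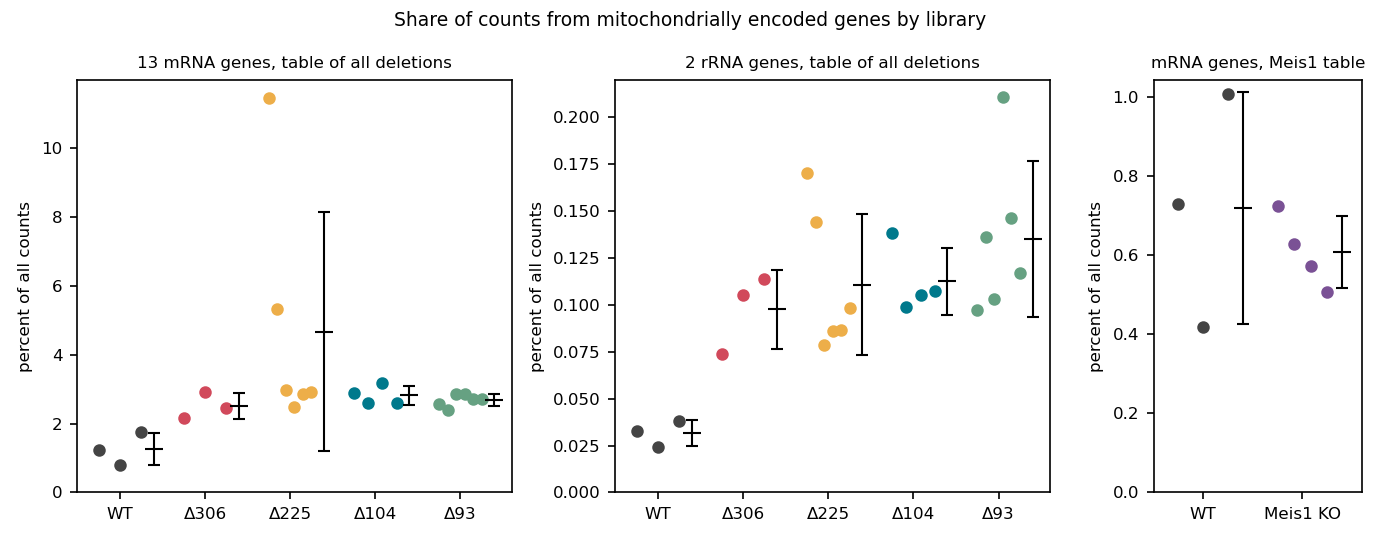
Share of all counts, in percent, from the 13 mRNA genes (left) and the 2 rRNA genes (middle) for all deletions, with mRNA in the Meis1 table at the right; points are libraries, bars are the mean ± SD. WT lies below every deletion library in the left and middle panels, Δ225 replicate 1 reaches 11.4% for the mRNAs, and the Meis1 KO libraries lie within the range of WT.

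The rRNA share was also lower in every WT library than in any deletion library. mt-Rnr1 and mt-Rnr2 are the RNAs of the small and large subunits of the mitochondrial ribosome, which translates the mitochondrial mRNAs. Together they made up 0.0326, 0.0240 and 0.0379% of counts in the WT libraries (0.0315 ± 0.00704%, n = 3). The mean was 0.0976 ± 0.0212% for Δ306 (n = 3) and 0.112 ± 0.0177% for Δ104 (n = 4). For Δ93 it was 0.135 ± 0.0415% and for Δ225 0.111 ± 0.0375% (both n = 6). Because these RNAs were counted after selection for poly(A), the values describe the part that was retained, not the rRNA of the mitochondrion. Per 100 counts of mitochondrial mRNA there were 2.60 ± 0.411 counts of rRNA in WT, 3.89 ± 0.653 in Δ306, 4.00 ± 0.614 in Δ104, 5.02 ± 1.42 in Δ93 and 2.78 ± 0.720 in Δ225. Δ306, Δ104 and Δ93 were above WT in every library by this ratio. Δ225 replicate 1 had the lowest value of all, 1.49, while the other Δ225 libraries had up to 3.48.

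Levels of single genes are given as CPM on library sizes scaled by TMM, a normalization that corrects for the make-up of a library. For mt-Rnr1 they were 95.2, 81.9 and 131 in WT replicates 1 to 3 and 239, 329.6 and 348 in Δ306. Δ104 had 462, 304, 303 and 329.9, Δ225 had 223 to 542 (median 252) and Δ93 had 322 to 683 (median 369). All deletion libraries were above WT. edgeR's quasi-likelihood test with Benjamini-Hochberg adjustment over all 22941 genes tested gave log2 fold changes against WT of 1.58 ± 0.338 (SE) in Δ306 (adjusted p = 0.0109), 1.62 ± 0.309 in Δ225 (0.0325), 1.77 ± 0.326 in Δ104 (0.0397) and 2.04 ± 0.317 in Δ93 (7.21e-04). mt-Rnr2 had 219, 167 and 268 CPM in WT and 465.5, 666 and 748 in Δ306. Its other groups ran from 656 to 891 in Δ104, from 543 to 1382 in Δ225 (median 689) and from 613 to 1478 in Δ93 (median 893), again without overlap with WT. Its log2 fold changes were 1.52 ± 0.326 in Δ306 (adjusted p = 0.0109), 1.94 ± 0.304 in Δ225 (0.00767), 1.82 ± 0.316 in Δ104 (0.0342) and 2.09 ± 0.307 in Δ93 (6.45e-04). These 4 comparisons share the WT libraries, so their values are not independent of one another. The rRNA calls in Δ93 held under each of the 16 alternatives tried, with adjusted p of at most 0.00901. In Δ104 both were lost without WT replicate 1, 2 or 3 and without Δ104 replicate 1 or 2.

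Of the 19 members that passed the filter on low counts, 5 were called higher against WT in Δ306, 6 in Δ225, 2 in Δ104 and 5 in Δ93, and none was called lower. The call threshold was an adjusted p of 0.05. Over all genes tested, 2.96% were called higher in Δ306, 0.131% in Δ225, 0.061% in Δ104 and 7.23% in Δ93. The libraries of a deletion lay wholly above those of WT for 16 of the 19 members in Δ306 (19.2% of all genes tested), 15 in Δ225 (5.22%), 16 in Δ104 (8.68%) and 16 in Δ93 (12.1%). The tRNA genes mt-Tn, mt-Ts1 and mt-Tc had 0, 4 and 5 counts over the WT libraries. They passed the filter only through deletion libraries, where they were higher, so they add nothing to these counts. mt-Tc was among the calls in Δ306. Among members wholly above WT, mt-Tc was counted in Δ306, Δ104 and Δ93, and mt-Tn and mt-Ts1 in Δ104. All 13 mRNA genes had a positive log2 fold change in each deletion. Their median was 0.98 in Δ306, 2.02 in Δ225, 1.23 in Δ104 and 1.08 in Δ93, where the median over all genes was 0.08, 0.04, 0.06 and 0.07. The count of calls depended on single libraries: it was 1 in Δ306 without WT replicate 2 or Δ306 replicate 3, 2 without WT replicate 1 and 3 without Δ306 replicate 2. For Δ225 it was 0 without WT replicate 1 or 2, 14 without Δ225 replicate 1, 3 without replicate 2 and 10 without replicate 3. For Δ104 it was 0 without any 1 of the WT libraries or Δ104 replicate 1 or 2, and for Δ93 it was 2 without WT replicate 1 or 2.

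**Figure D3:**
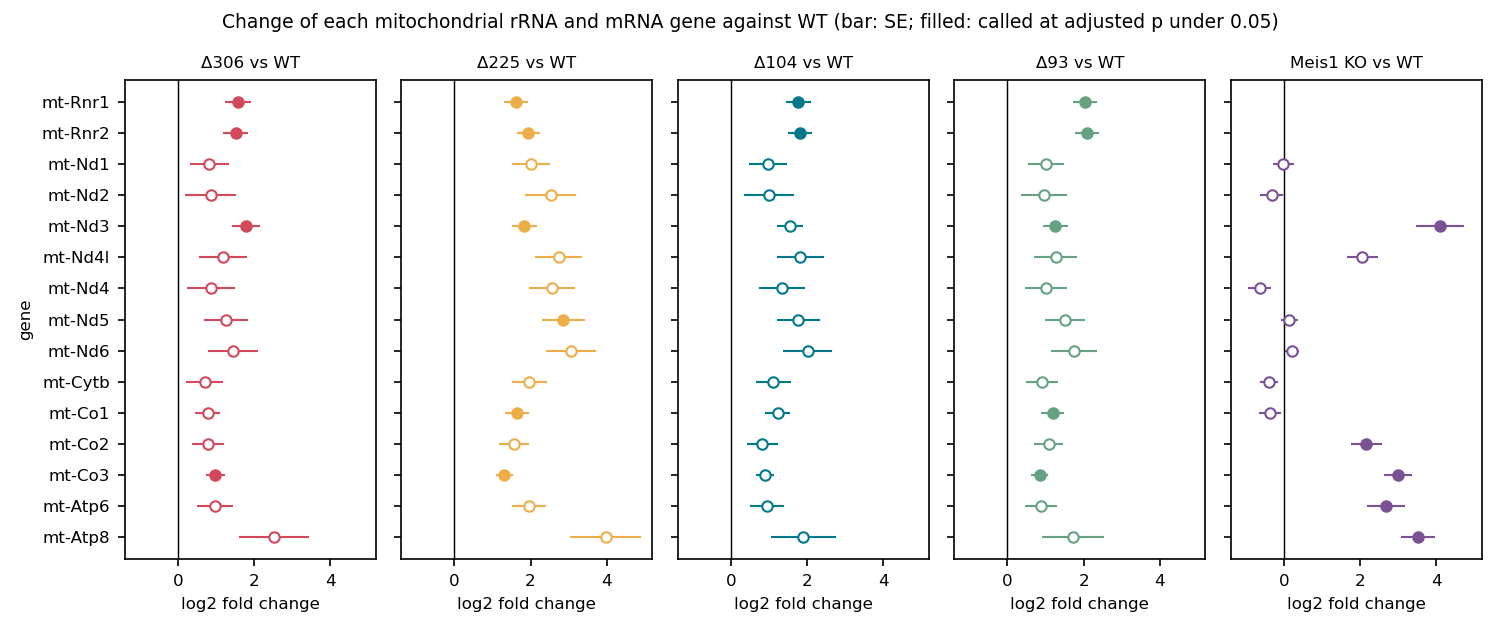
Log2 fold change against WT of the 2 rRNA and 13 mRNA genes in each deletion and in the Meis1 KO, with the SE as a bar; filled points passed edgeR's test at an adjusted p under 0.05. All 15 points are to the right of 0 in each of the 4 deletions, whereas in the Meis1 KO 5 of 13 are filled, all to the right of 0, with mt-Atp8 at 3.52 among them.

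Complex I, NADH dehydrogenase, is where electrons from NADH enter the chain, and 7 of its subunits are mitochondrially encoded. mt-Nd3, a small core subunit beside the quinone site, was called in 3 of the 4 deletions. It had 82.7, 113 and 162 CPM in WT and 336, 435 and 470.4 in Δ306. Δ104 had 313, 259, 373 and 458, Δ225 276 to 850.1 (median 313) and Δ93 230.3 to 364 (median 274). No deletion library reached down to WT. The log2 fold change was 1.80 ± 0.360 in Δ306 (edgeR adjusted p = 0.00753), 1.84 ± 0.332 in Δ225 (0.0248) and 1.26 ± 0.321 in Δ93 (0.0128), and 1.56 ± 0.343 without a call in Δ104 (0.0658). The Δ306 call held under all 14 alternatives, among them each library left out and the smaller table (3.48 there, on the few counts it holds), and no other mRNA call against WT did so. Since 98.0% of the words of mt-Nd3 are shared with its copy on chromosome 1, the count belongs to both.

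mt-Nd5, one of the proton-pumping subunits, is among the genes with little shared sequence. WT had 653, 362 and 711 CPM, and Δ306 had 1182, 1606 and 1326. In Δ104 the values were 2179, 1899, 2469.7 and 1320.4, in Δ225 1829 to 13617 (median 1932) and in Δ93 1336 to 1943 (median 1689). All were above WT. The call was made in Δ225 (2.86 ± 0.573, edgeR adjusted p = 0.0385), while Δ306 had 1.25 ± 0.577 (0.206), Δ104 1.77 ± 0.562 (0.172) and Δ93 1.504 ± 0.529 (0.0616). mt-Nd6, its neighbour on the opposite strand, had 144, 94.6 and 175 CPM in WT and 290.1, 439 and 392 in Δ306. It ran from 478 to 622 in Δ104, from 374 to 612 in Δ93 and from 362 to 4242 in Δ225, also above WT throughout. Its log2 fold changes, from 1.44 in Δ306 to 3.06 in Δ225 (edgeR adjusted p = 0.0556), were not called.

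mt-Nd1, mt-Nd2, mt-Nd4 and mt-Nd4l complete the set for complex I, and none was called in a deletion against WT. mt-Nd1 had 897, 678 and 1648 CPM in WT, 1761, 2126 and 1839 in Δ306, and 1930.3 to 2392 in Δ104. mt-Nd2, another of the pumping subunits, had 475, 343 and 921 in WT and 963, 1222 and 971 in Δ306. For both genes WT replicate 3 came close to the deletions, and for mt-Nd2 it was above the lowest Δ93 library, at 915. mt-Nd4, the third pumping subunit, had 900.3, 517 and 1348 in WT, 1483, 2069 and 1502 in Δ306, and 1587 to 2162 in Δ93. mt-Nd4l, a small subunit whose end overlaps the start of mt-Nd4 by 7 bases, had 64.7, 52.0 and 109 in WT and 158, 200.3 and 152 in Δ306. Δ225 replicate 1 was far above the rest of its group, with 13264 for mt-Nd1 (group median 2345), 12804 for mt-Nd2 (1330.2), 18650.0 for mt-Nd4 (2462) and 1651 for mt-Nd4l (256).

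Complex III, which passes electrons to cytochrome c, has 1 mitochondrially encoded subunit, mt-Cytb. It had 1204, 786 and 1811 CPM in WT and 1847, 2454 and 1884 in Δ306, so the highest WT library was just below the lowest Δ306 library. Δ104 had 2375 to 3321, Δ93 2006 to 2642 (median 2397) and Δ225 2334 to 13858 (median 2923). Its log2 fold changes were 0.70 ± 0.479 in Δ306, 1.97 ± 0.456 in Δ225, 1.12 ± 0.459 in Δ104 and 0.90 ± 0.430 in Δ93, with edgeR adjusted p of 0.420, 0.0679, 0.264 and 0.170.

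Complex IV, cytochrome c oxidase, reduces oxygen, and its 3 core subunits are mt-Co1, mt-Co2 and mt-Co3. mt-Co1 had 3194, 1824 and 4471 CPM in WT and 4634, 6569.6 and 5172 in Δ306. It had 8195, 6631, 8301 and 6443 in Δ104, 6163 to 16476 in Δ225 (median 7364) and 6712 to 7675 in Δ93 (median 7189). All deletion libraries were above WT. It was called in Δ225 (1.64 ± 0.311, edgeR adjusted p = 0.0325) and Δ93 (1.19 ± 0.303, 0.0128) but not in Δ306 (0.79 ± 0.333, 0.165) or Δ104 (1.23 ± 0.320, 0.104). mt-Co3 had 1619, 1571 and 2664 in WT, 3213, 4149.7 and 4259 in Δ306, and 3255, 3241, 4029 and 4015 in Δ104. In Δ225 it ran from 3513 to 6743 (median 4136) and in Δ93 from 2972 to 4168 (median 3530.4), without overlap with WT. It was called in Δ306 (0.99 ± 0.253, edgeR adjusted p = 0.0255), Δ225 (1.31 ± 0.231, 0.0248) and Δ93 (0.85 ± 0.226, 0.0159), with 0.90 ± 0.240 in Δ104 (0.111). mt-Co2 had 1422, 977 and 2473 in WT, 2388, 3354 and 2653 in Δ306, and 2721, 2446, 3014 and 3349.6 in Δ104. These overlapped WT, while Δ225 (2692 to 11453) and Δ93 (2528 to 4702) did not, and no deletion was called. The calls of mt-Co1, mt-Co3 and mt-Nd3 in Δ93 were lost without WT replicate 1 or 2.

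Complex V, ATP synthase, has mt-Atp6, which lines the proton channel, and mt-Atp8, a short peptide of the stator. mt-Atp6 had 1082, 1030.0 and 1920.0 CPM in WT and 2219, 2819 and 2899 in Δ306. Δ104 had 2294 to 2995, Δ225 2706 to 14372 and Δ93 2128 to 2816, all above WT. Its log2 fold changes of 0.88 to 1.95 were not called. mt-Atp8 had the widest relative spread of the mRNA genes in WT, with 7.28, 16.7 and 33.1. Δ306 had 96.4, 111 and 122, Δ104 31.5, 72.2, 86.9 and 95.0, Δ93 49.5 to 78.9 (median 62.7) and Δ225 58.1 to 1281 (median 86.5). The lowest Δ104 library was below the highest WT library. Log2 fold changes ran from 1.73 ± 0.812 in Δ93 to 3.97 ± 0.925 in Δ225 (edgeR adjusted p = 0.165 and 0.0679), and none was called. Because the mt-Atp8 transcript also carries mt-Atp6, reads over their overlap can be given to either gene or to neither.

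The tRNA genes had few counts, and nearly all of these were on 1 strand. Over the 22 libraries of the table of all deletions, 9 of the 22 tRNA genes had no count and 13 had at least 1. The 8 genes on the minus strand had 7662 counts in total and the 14 on the plus strand 19. mt-Tp, the proline tRNA, held 7074 of them (92.1%), mt-Ts1, a serine tRNA, 230 (2.99%), and mt-Tc, the cysteine tRNA, 166 (2.16%). Their sequences are shown because these genes held the most counts of the tRNAs. They are written 5′ to 3′ on the minus strand, from chrM:15356-15422, chrM:6870-6938 and chrM:5192-5257.
mt-Tp: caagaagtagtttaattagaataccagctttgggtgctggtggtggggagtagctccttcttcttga
mt-Ts1: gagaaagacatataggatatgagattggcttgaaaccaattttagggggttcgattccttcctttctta
mt-Tc: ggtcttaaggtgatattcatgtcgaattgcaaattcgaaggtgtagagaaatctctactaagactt
mt-Tp had 6.43, 3.90 and 7.99 CPM in WT and 12.3, 12.3 and 13.46 in Δ306. It had 14.8, 12.4, 7.79 and 10.7 in Δ104, 8.21 to 12.6 in Δ93 and 7.42 to 26.0 in Δ225, so Δ104 and Δ225 each met WT. Against WT, mt-Tc was the 1 tRNA called, in Δ306 (4.18 ± 1.17, edgeR adjusted p = 0.0370), on 60 counts against 5 in the 3 WT libraries, and of 13 alternatives 6 lost it. Like mt-Ts1, mt-Tc passed the filter only through deletion libraries, where it was higher. mt-Tn, the asparagine tRNA, had no count in WT, where a count of 0 allows up to 3 over the group. It had 8 counts in Δ306, of which 1 library held 6, and 15 in Δ104. In Δ225 it had 63, with 32 in 1 library, and in Δ93 it had 6, with 4 in 1 library. It was not called against WT, and it was called higher in Δ225 than in Δ93 (4.51 ± 1.36, edgeR adjusted p = 0.0245), a call lost without Δ93 replicate 2, 3, 4 or 5; without Δ225 replicate 1, 2 or 3 the gene did not pass the filter.

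Levels per kilobase of gene allow the members to be set in order within WT. On this scale mt-Co3 was first with a mean of 2489 ± 788 CPM per kb (SD, n = 3), then mt-Co2 (2374), mt-Co1 (2047), mt-Atp6 (1973), mt-Nd1 (1123) and mt-Cytb (1107). Below them came mt-Nd4 (669), mt-Nd2 (558), mt-Nd3 (343), mt-Nd5 (316), mt-Nd6 (265) and mt-Nd4l (253), and last mt-Rnr2 (138), mt-Rnr1 (107) and mt-Atp8 (93.4). Neighbours in this order were not separated by the libraries: of the 14 neighbouring pairs, the WT ranges overlapped in all but mt-Nd4l and mt-Rnr2. The 4 genes mt-Co1, mt-Co2, mt-Co3 and mt-Atp6 filled the first 4 places in every group, in differing order. mt-Atp8 was last in WT, Δ104 and Δ93, 13 in order in Δ306 and 12 in Δ225. The rRNAs, which are abundant in mitochondria, ranked low in these poly(A)-selected libraries.

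**Figure D4:**
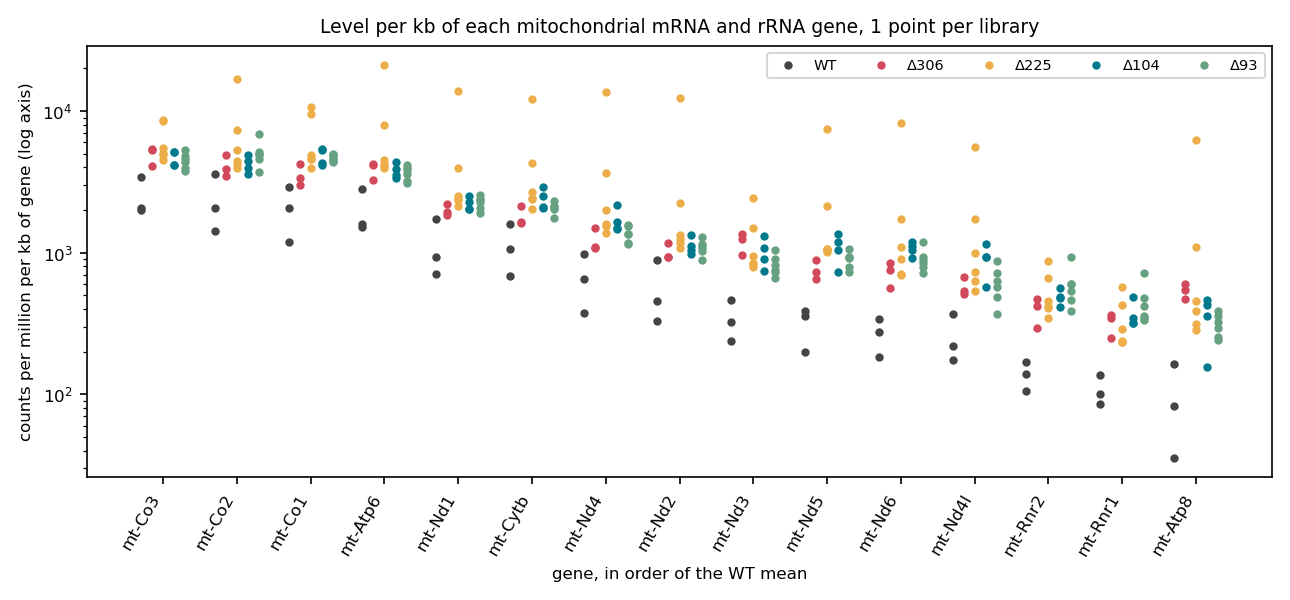
Level of each rRNA and mRNA gene in CPM per kb of gene on a log axis, with genes in the order of their WT mean and 1 point per library, coloured by group. The WT points are the lowest for nearly every gene, and the highest points, up to 21104.5 CPM per kb for mt-Atp6, are from Δ225 replicate 1.

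The make-up of the mRNA pool, each gene as a percent of the 13 summed, was led by mt-Co1. It was 24.4 ± 2.699% in WT (SD, n = 3) and lay between 21.8 and 28.9% in every library but Δ225 replicate 1. mt-Nd6 was the gene whose part was above WT in every library of all 4 deletions. It was 0.949 to 1.22% in WT, 1.41 to 1.66% in Δ306, 1.28 to 3.28% in Δ225, 1.81 to 2.16% in Δ104 and 1.51 to 2.09% in Δ93. mt-Nd5 was wholly above WT in Δ306 (5.61 to 5.83% against 3.86 to 5.56%) and Δ225 (6.57 to 10.5%). In Δ306, mt-Nd3, mt-Nd4l and mt-Atp8 were also wholly above WT and mt-Cytb wholly below it, at 7.97 to 8.98% against 9.39 to 10.3%. These are parts of a whole and carry no test.

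Within Δ225, replicate 1 also had a make-up of its own. mt-Nd2 was 9.91% of its mRNA counts against a group median of 4.43%, mt-Nd4 14.4% against 8.40%, and mt-Nd5 10.5% against 6.89%. On the other side mt-Co3 was 5.22% against 12.96%, and mt-Co1 12.8% against 24.4%. Of the 7 complex I genes, all but mt-Nd3 (0.658%) took their largest part of the group in this library, and its count of mt-Nd5 was 2.02 times that of mt-Co3, where the other Δ225 libraries had 0.442 to 0.584. The summed level of 68 replication-dependent histone genes, whose mRNAs lack a poly(A) tail, was 72.5 to 223 CPM in Δ225 and 206 to 370 in WT. It was 325 to 397 in Δ306, 136.5 to 413 in Δ104 and 167.5 to 379.5 in Δ93, and its part in these values was not tested.

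**Figure D5:**
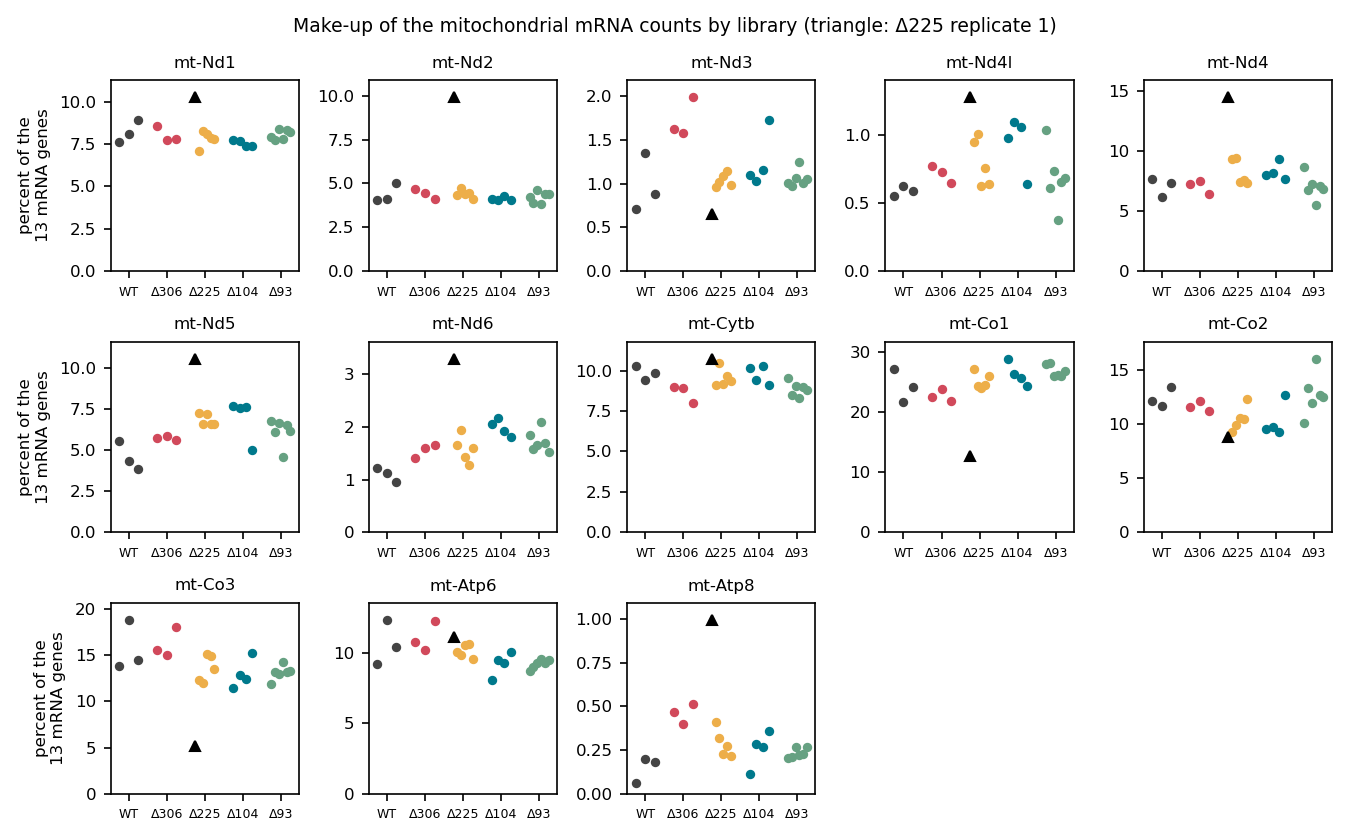
Each panel gives 1 of the 13 mRNA genes as a percent of their summed counts in a library, by group, with Δ225 replicate 1 as a black triangle. The triangle is above its group for mt-Nd2 (9.91%), mt-Nd4 (14.4%) and mt-Atp8 (0.991%) and below it for mt-Co1 (12.8%) and mt-Co3 (5.22%).

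Among the deletions themselves, members were called in comparisons with Δ225 only. Comparisons with Δ306 cross the sets of labels. Δ225 and Δ93 share a set but differed in their mix of libraries with low and high total counts, whose part was not tested. Against Δ93, 9 of 19 members were called higher, where 9.96% of all genes were. They were mt-Nd2 (1.57 ± 0.487, edgeR adjusted p = 0.0271), mt-Nd4, mt-Nd5, mt-Nd6, mt-Nd4l, mt-Cytb, mt-Atp6, mt-Atp8 (2.25 ± 0.634, 0.0161) and mt-Tn. mt-Tn passed the filter only through Δ225 replicates 1, 2 and 3, where it was high, so its call adds nothing to this count. Apart from it, 8 of the 13 mRNA genes were called. The rRNAs went the other way without a call, -0.42 for mt-Rnr1 and -0.15 for mt-Rnr2. Without Δ225 replicate 1 the 8 mRNA genes were no longer called, mt-Tn did not pass the filter, and 1 other gene, mt-Rnr1, was called. Leaving out Δ93 replicate 2, 4 or 5 left 2, 3 or 5 calls. Against Δ306, mt-Nd5 was the 1 member called higher (1.61 ± 0.532, adjusted p = 0.0494; 6.47% of all genes), and it too was lost without Δ225 replicate 1 or 2 or any 1 of the Δ306 libraries. Without Δ225 replicate 3, 4, 5 or 6 that comparison had 3, 5, 3 or 3 calls. edgeR called 0 of 19 members between Δ225 and Δ104 (0.645% of all genes called in either direction), Δ93 and Δ104 (0.0523%), Δ93 and Δ306 (0.0785%), and Δ104 and Δ306 (0.0654%). At an unadjusted p under 0.05 these had 8, 0, 1 and 0 members, and DESeq2 called 0 in each. A p that misses the threshold does not show that the groups had the same level.

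The Meis1 table holds 13 of the members, all of them mRNA genes, and its mitochondrial share did not separate the groups. It was 0.730, 0.419 and 1.01% of counts in WT and 0.724, 0.628, 0.573 and 0.507% in the KO (0.608 ± 0.0917%, n = 4), with every KO library inside the range of WT. The log2 ratio of means was -0.24, and it ran from -0.52 to 0.08 with each library left out in turn. The 7 genes that keep most or part of their counts in this table, mt-Nd1, mt-Nd2, mt-Nd4, mt-Nd5, mt-Nd6, mt-Cytb and mt-Co1, had log2 fold changes of -0.64 to 0.20, none of them called. mt-Nd1, for example, had 743 to 1794 CPM in WT (median 987) and 956 to 1407 in the KO. Of the mRNA counts of a library, mt-Nd1 made up 18.5 to 19.6% in the KO against 14.1 to 17.5% in WT, and mt-Nd6 3.72 to 4.46% against 2.65 to 3.33%, while mt-Cytb was at 16.7 to 17.6% against 18.5 to 19.6% and mt-Nd4 at 4.37 to 5.06% against 5.595 to 6.44%. In these 4 genes the groups did not overlap, and these parts of a whole carry no test.

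The other 6 genes of that table, the ones with whole nuclear copies and mt-Atp8, had few counts, and these were higher in the KO. Over 16791 genes tested, 1.27% were called higher, and 5 of the 13 members were. mt-Co3 had 38, 153 and 59 counts in WT and 619, 876, 804 and 615 in the KO, a log2 fold change of 2.99 ± 0.375 (edgeR adjusted p = 0.0194). mt-Nd3 had 0, 7 and 7 counts in WT and 72, 111, 103 and 78 in the KO (4.09 ± 0.621, 0.0340). For mt-Atp8 the counts were 1, 8 and 6 against 63, 62, 63 and 73 (3.52 ± 0.451, 0.0211). mt-Co2 (2.16 ± 0.403, 0.0443) and mt-Atp6 (2.68 ± 0.508, 0.0449) were also called, and mt-Nd4l (2.06 ± 0.410, 0.0503) was not. No KO library overlapped WT in these 6 genes, which was so for 12.3% of all genes. They amounted to 0.0413 to 0.216% of the mitochondrial counts in WT and 0.463 to 0.896% in the KO, and in the WT and Δ306 libraries this way of counting holds at most 1.05% of the counts that the table of all deletions gives them. Of a list of RNAs without a poly(A) tail other than histone mRNAs, this table holds 1 gene. It also did not overlap, at 0.162 to 0.364 CPM in WT and 0.446 to 2.51 in the KO. Of 53 replication-dependent histone genes tested, 46 had a positive log2 fold change (median 0.33) and 1 was called higher. The part of these RNAs in the result was not tested. Some cell-type markers differed between these groups as well. The summed Sertoli markers were at 1312 to 1757 CPM in the KO against 1873 to 2360 in WT. Blood markers were at 2867 to 4044 against 4248 to 5476, and striated muscle markers at 7.75 to 11.3 against 38.5 to 69.5. These lists did not overlap, and of all single genes tested 7.43% lay wholly below WT. The pre-granulosa, fetal Leydig, germ-cell, mesonephric, endothelial, macrophage and adrenal lists did overlap. The part of these cells in the result was not tested. Low striated muscle markers were not particular to the KO. In the table of all deletions they were at 37.5 to 68.1 CPM in WT and 54.1 to 99.1 in Δ306. Δ104 had 8.83 to 13.6, Δ93 9.62 to 42.4 (median 12.9) and Δ225 7.32 to 578.5 (median 12.5). For the 6 genes, a difference in how few of their reads were assigned and a difference in their RNA cannot be told apart here. The calls also rested on single libraries: without WT replicate 3 or any 1 KO library none remained, and without WT replicate 2 only mt-Co3 did.

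Nuclear genes that work with these members were counted from lists of their own, which were written with earlier results of these data known. Of 76 tested nuclear subunits of complexes I to V, 11 were called higher and 0 lower in Δ306 against WT, with a median log2 fold change of 0.44, where the median of all genes was 0.08 and 2.96% were called higher. Ndufs6 (0.98 ± 0.263, edgeR adjusted p = 0.0313) was the highest of the called genes, with Ndufa4 (0.97 ± 0.221, 0.0147) and Cox6c (0.97 ± 0.25, 0.0266) next. In Δ93, 3 were called higher (median 0.26), with Cox5a at 0.91 ± 0.278 (adjusted p = 0.0332), which is a smaller share than the 7.23% of all genes. In the Meis1 KO 5 of 76 were called higher (median 0.26), where 1.27% of all genes were. In Δ225 and Δ104 edgeR called 0 of the 76 against WT, with medians of -0.12 and 0.08. Without adjustment 4 and 9 had a p under 0.05, and DESeq2 called 0 in both. Between deletions, Δ225 had 25 of them called lower than in Δ306 (median -0.48; 6.74% of all genes were called lower) and 20 called lower and 1 higher than in Δ93 (-0.38; 10.8%). Proteins of the mitochondrial ribosome gave 3 of 78 called higher in Δ306 (median 0.23), a share near the 2.96% of all genes, and 2 in Δ93 (0.11), below the 7.23% of all genes. In Δ225 against Δ306, 9 were called lower (-0.35; 6.74% of all genes).

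The machinery that makes and processes mitochondrial RNA had few called genes. Of 31 tested genes of this list, 1 was called higher in Δ306 against WT (2.96% of all genes), Mterf2, a member of the family of mitochondrial termination factors (0.87 ± 0.261, edgeR adjusted p = 0.0495), and edgeR called 0 in Δ225, Δ104 and Δ93 against WT (8, 3 and 4 at an unadjusted p under 0.05, and 4, 0 and 2 by DESeq2). In Δ225 against Δ93, 2 were called higher (9.96% of all genes), Fastkd2 (0.425 ± 0.115, edgeR adjusted p = 0.0125) and Pnpt1 (0.497 ± 0.175, 0.0481). In the same comparison 1 was called lower (10.8% of all genes), Mrm1 (-1.13 ± 0.247, 0.00279). Of 6 genes of a list of regulators of mitochondrial biogenesis, 1 was called lower in Δ306 and in Δ93 against WT. Over all genes tested, 3.46% and 6.84% were called lower there. In each, 3 of the 6 had a positive log2 fold change. The called gene was Ppargc1a, a coactivator that drives mitochondrial biogenesis, which was lower in Δ306 (-1.53 ± 0.419, 0.0338) and Δ93 (-1.37 ± 0.341, 0.0108) against WT, and higher in Δ225 than in Δ306 (1.95 ± 0.391, 0.00325) and Δ93 (1.79 ± 0.298, 3.16e-04). Esrra, a nuclear receptor that acts with it, was lower in Δ225 than in Δ93 (-1.13 ± 0.385, 0.0415), and the other 4 were not called in these comparisons. Of all genes, 6.47% were called higher in Δ225 than in Δ306. Against Δ93, 9.96% were called higher in Δ225 and 10.8% lower.

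Summed cell-type markers differed from WT in some deletions, while Δ225 overlapped WT in each list below. The summed level of 5 Sertoli cell markers (Sox9, Amh, Dhh, Cldn11, Aard) was 1719 to 2170 CPM in WT, 83.0 to 452 in Δ306, 55.4 to 780 in Δ93, 38.0 to 1706 in Δ104 and 454 to 1955 in Δ225. That of 4 pre-granulosa markers (Foxl2, Fst, Wnt4, Rspo1) was 47.7 to 92.4 in WT, 271 to 536 in Δ306, 333 to 824 in Δ93, 57.6 to 531 in Δ104 and 54.8 to 95.3 in Δ225. Fetal Leydig markers (Cyp11a1, Cyp17a1, Insl3, Star, Hsd3b1), of cells whose mitochondria make steroids, summed to 902 to 1554 in WT, 39.8 to 91.3 in Δ306, 50.1 to 314 in Δ93, 37.8 to 1629 in Δ104 and 452 to 3044 in Δ225. The 3 endothelial markers (Pecam1, Cdh5, Kdr) summed to 354 to 474 in WT, 234.5 to 318 in Δ306, 235 to 352 in Δ93, 269 to 347.5 in Δ104 and 218 to 445.5 in Δ225. The part of these cells in the levels of the mitochondrial genes was not tested. Sertoli markers did not overlap WT in Δ306 and Δ93, while in Δ225 and Δ104 1 library or more lay near or within the WT range. Blood markers summed to 13240 to 16270 in WT. They overlapped WT in each deletion, with values from 3450 in Δ225 to 58180 in Δ93. The germ-cell, mesonephric and macrophage lists also overlapped WT in each deletion. The adrenal list was wholly below WT (4.66 to 10.05) in Δ306 (0.614 to 1.01) and Δ93 (0.8225 to 2.475) and overlapped it in Δ104 and Δ225. Striated muscle markers were wholly below WT (37.5 to 68.1) in Δ104 (8.83 to 13.6) and overlapped it in the other deletions. Whether the mRNA share followed any of these markers was not tested.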

How the data were processed

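Poly(A) RNA-seq libraries of XY gonads at stage E13.5 were grouped by the labels, and columns were matched to samples by name. The mutant columns of the smallest table carry the gene name only and were taken as Δ306 from the series' stated design. The authors deposited raw counts per gene, whole numbers that sum to different totals in each library. STAR (2.7.10a for WT and Δ306), DESeq2 and the build mm10 are named in the submitters' processing notes, with featureCounts and Subread for WT and Δ306. Their roles, the annotation and the treatment of reads that match several places are not given in the sources used here. WT counts were identical at all 31053 genes of the smaller tables.

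Members were found by symbol, and the members and lists were chosen with earlier results of these data known. Every member is accounted for. Other genes were named by rule, the 2 largest and 2 smallest log2 fold changes among called genes of a list, of which some are given. edgeR 4.0.16, run in R 4.3.3, tested the counts (filterByExpr, TMM, glmQLFit, glmQLFTest, Benjamini-Hochberg over all genes of a comparison) with the 22 libraries that cover all deletions fitted together and the 7 of the Meis1 table apart, 11 comparisons in all. Genes were called at an adjusted p under 0.05. The fits were tested on simulated data. Alternatives were DESeq2 1.42.0, other normalizations, filters, thresholds, tables and libraries left out. Shared sequence was counted as 50-base words in GENCODE M21 transcripts. The sources used here name no molecular identifiers, so the floor of 3 counts covers counting error only.

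In the table of all deletions, same-numbered libraries did not deviate together more than others. Correlations of their deviations were -0.307 to 0.481, with 9 of 35 pairs above 0.1. Pairs of differing number had -0.661 to 0.508, with 44 of 154 above 0.1. In the Meis1 table the same-numbered pairs had -0.018 to 0.375, with 2 of 3 above 0.1, and the others -0.404 to 0.407, with 3 of 9. These pairs are too few to decide. The labels name no pairs, and the replicate numbers were not taken as pairs.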

Additional observations from a re-analysis of the deposited data

Results flagged for a closer look

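In groups of 4 to 10 libraries, a library was singled out where its distance from the nearest other exceeded Dixon's 95% critical value. This was applied to 68 groups of values and chance alone gives about 1 in 20, so the pattern over genes of 1 library, which are not independent, is given as values. Δ225 replicate 1 was singled out for its mRNA share, 11.4% of counts against 5.33% in the next library. The same library was singled out for 10 mRNA genes. It had 13264 CPM of mt-Nd1 (next 3819), 12804 of mt-Nd2 (2325), 18650.0 of mt-Nd4 (4996), 1651 of mt-Nd4l (512), 13617 of mt-Nd5 (3894) and 4242 of mt-Nd6 (893). For the other complexes it had 13858 of mt-Cytb (4918), 11453 of mt-Co2 (5025), 14372 of mt-Atp6 (5426) and 1281 of mt-Atp8 (223). mt-Co1, mt-Co3, mt-Nd3 and both rRNAs were not singled out in it. mt-Rnr1 was high in Δ104 replicate 1, at 462 CPM (next 329.9), and in Δ93 replicate 4, at 683 (next 453).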

How the results depend on the processing

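Counts of called members, among which mt-Tn, mt-Ts1 and mt-Tc passed the filter only through deletion libraries, moved by over 1.5 times as follows. At an adjusted p under 0.01 they were 1 in Δ306, 1 in Δ225, 0 in Δ104, 2 in Δ93 and 0 in the Meis1 KO against WT, and 0 in Δ225 against Δ93 or Δ306. Fitted on the compared groups alone, they were 11 in Δ306, 0 in Δ225, 0 in Δ104 and 15 in Δ93 against WT, 1 in Δ225 against Δ93 and 0 against Δ306. DESeq2 gave 17 in Δ225, 7 in Δ104 and 8 in Δ93 against WT, and 9 in Δ225 against Δ306. With no composition factor there were 8 in Δ93 against WT and 0 in Δ225 against Δ306. RLE, and library sizes from nuclear genes, gave 1 each in Δ104 against WT, the second also 2 in Δ225 against Δ306, where no filter on low counts gave 0. With Δ225 replicates 1 and 2 both out, an alternative chosen after seeing the data, there were 14 against WT and 1 against Δ93, the mRNA share ratio to WT was 1.16 on the log2 scale, and mt-Nd6 against Δ93 reversed to -0.082.

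With the replicate number as a block, which the data did not show to pair the samples, there were 17 in Δ225, 5 in Δ104, 8 in Δ93 and 3 in the Meis1 KO against WT, and 2 in Δ225 against Δ93 and 5 against Δ306; mt-Nd1 in the Meis1 KO reversed to 0.154. Leaving out each library in turn gave 1 to 5 calls in Δ306, 0 to 14 in Δ225, 0 to 3 in Δ104, 2 to 6 in Δ93 and 0 to 6 in the Meis1 KO against WT, 1 to 11 in Δ225 against Δ93, 0 to 5 against Δ306, and 0 to 0 elsewhere. Log2 ratios of the mRNA share ran from 0.75 to 1.31 in Δ306, 1.39 to 2.20 in Δ225, 0.92 to 1.48 in Δ104, 0.85 to 1.41 in Δ93 and -0.52 to 0.08 in the Meis1 KO. In the Meis1 KO, leaving out each library gave log2 fold changes of -0.274 to 0.408 for mt-Nd1 (positive without WT replicate 3 or KO replicate 4), -0.593 to 0.166 for mt-Nd2 (positive without WT replicate 3), -0.116 to 0.302 for mt-Nd5 and -0.03 to 0.397 for mt-Nd6 (both negative without WT replicate 2); none was called in either direction. The cause of these changes was not tested. The WT group of 3 libraries and tRNA genes with few counts limit the precision.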
